A study of Homo sapiens with 15 samples.

Results

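Long intergenic noncoding RNAs, the transcripts that carry a LINC symbol, were followed while H9 cells, a widely used line of human embryonic stem cells, were differentiated towards definitive endoderm. Members were all symbols of the gene count table made of LINC and 5 digits. There were 134 of them among 23346 symbols, and LINC-ROR was not analysed here. Undifferentiated cells in E8 medium formed the day 0 group. Cells given activin A, which stands in for Nodal signalling, together with the GSK3 inhibitor CHIR99021 on the first day formed the day 1 group, and cells given activin A alone after that formed the day 2, day 3 and day 4 groups. All differentiating cells were in Advanced RPMI, so the differentiation day and the change of medium cannot be told apart in comparisons with day 0. Each day had 3 polyA-selected libraries, numbered 1, 2 and 4, which makes 15 in all. No label says whether the libraries are from separate cultures. The p-values therefore measure only the spread between these samples, which may be technical.

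Long noncoding RNAs are transcribed and often spliced like messenger RNAs but are not thought to code for long proteins. Some act on a neighbouring gene, some host small RNAs, and others have since been found to encode short peptides. In human endoderm the best known member is LINC00261, also called DEANR1, which lies beside FOXA2, the gene of a forkhead transcription factor that opens endoderm enhancers, and which was described as helping SMAD2 and SMAD3 act at that gene. Whether the counting used strand is not given in the sources used here. A member that overlaps another gene on either strand therefore has an uncertain level.

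The symbols are older than present-day gene names. RefSeq for GRCh38.p14 held 103 members under the same symbol and 28 as the older name of 1 other gene, and 13 of the 134 are now classed as protein-coding. Among them are LINC00341, now SYNE3, which encodes a nesprin of the nuclear envelope, LINC00085, now SPACA6, which encodes a sperm membrane protein needed for gamete fusion, LINC00116, now MTLN, which encodes a mitochondrial micropeptide, and LINC00493, now SMIM26, which encodes a small integral membrane protein.

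The promoters shown here belong to the 4 members classed as lncRNA that were both detected and changed over the days and for which RefSeq gives a start. Each window runs 5′ to 3′ on the gene's strand from 250 bases before the start to 50 bases after it. The windows are chr20:22578593-22578892 on the minus strand for LINC00261, chr11:33075900-33076199 on the plus strand for LINC00294, chr21:41715726-41716025 on the minus strand for LINC00479 and chr17:77088393-77088692 on the plus strand for LINC00338, now SNHG20, all in GRCh38.p14, while the counts were made on hg19. Capitals mark matches to a motif.
LINC00261: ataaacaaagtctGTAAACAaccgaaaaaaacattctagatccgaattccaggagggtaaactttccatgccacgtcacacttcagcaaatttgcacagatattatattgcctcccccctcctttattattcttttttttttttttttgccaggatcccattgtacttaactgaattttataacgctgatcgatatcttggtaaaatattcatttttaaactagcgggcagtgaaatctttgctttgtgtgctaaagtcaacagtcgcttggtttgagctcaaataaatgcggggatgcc
LINC00294: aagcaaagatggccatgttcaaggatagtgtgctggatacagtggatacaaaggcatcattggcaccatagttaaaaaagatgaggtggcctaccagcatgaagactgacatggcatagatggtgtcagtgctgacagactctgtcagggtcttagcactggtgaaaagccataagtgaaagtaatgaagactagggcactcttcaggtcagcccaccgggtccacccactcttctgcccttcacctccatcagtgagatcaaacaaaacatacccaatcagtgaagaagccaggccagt
LINC00479: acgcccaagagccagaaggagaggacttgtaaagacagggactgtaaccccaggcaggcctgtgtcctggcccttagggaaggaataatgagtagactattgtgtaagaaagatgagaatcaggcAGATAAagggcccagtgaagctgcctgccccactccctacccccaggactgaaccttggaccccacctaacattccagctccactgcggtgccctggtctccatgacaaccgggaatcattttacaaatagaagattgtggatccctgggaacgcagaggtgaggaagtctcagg
LINC00338: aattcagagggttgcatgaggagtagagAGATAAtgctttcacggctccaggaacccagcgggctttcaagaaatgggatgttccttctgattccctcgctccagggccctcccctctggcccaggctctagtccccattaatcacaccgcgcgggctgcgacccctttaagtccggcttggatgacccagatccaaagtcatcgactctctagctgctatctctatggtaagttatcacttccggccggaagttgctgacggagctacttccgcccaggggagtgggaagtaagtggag
The motifs searched on both strands were the octamer ATGCAAAT, the forkhead motif TGTTTAC, the GATA motif AGATAA, the TCF and LEF motif CTTTGAA, the T-box motif AGGTGTG and the FOXH1 motif AATNCACA. The LINC00261 window held 1 forkhead match, GTAAACA on the printed strand, at position -237 from the start, a motif in 3.41% of all 27305 promoters. The windows of LINC00479 and LINC00338 each held a GATA match, at -125 and -222, a motif in 10.5% of all promoters. No match overlapped another, and the LINC00294 window held no match to these letters. Of the 23 detected members with a promoter sequence, 0 held the octamer, 1 the forkhead motif, 2 the GATA motif, 1 the TCF and LEF motif, 2 the T-box motif and 1 the FOXH1 motif. The octamer was in 1.8% of all promoters, the TCF and LEF motif in 4.53%, the T-box motif in 4.59% and the FOXH1 motif in 3.27%. A match describes the letters and does not show binding.

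Library totals ran from 54723184 to 145857940 counts, and a count of 3 corresponded to 0.0204 to 0.0530 CPM (counts scaled to a common library size, here with TMM). The summed level of 6 undifferentiated-cell markers was 171 to 320 CPM on day 4, against 1727 to 2117 CPM on day 0. The 6 definitive endoderm markers summed to 886 to 4338 CPM on day 4, against 27.0 to 33.9 CPM on day 0. The 5 visceral and parietal endoderm markers summed to 3.61 to 5.90 CPM on day 4, against 4.49 to 11.9 CPM on day 0, and TTR, 1 of them, had no count in any library. Some libraries stood apart. Replicate 1 of days 3 and 4 had EOMES, a primitive streak and endoderm factor, at 60.3 and 81.6 CPM, against 326 to 452 CPM in the other libraries of these days. The endoderm markers CER1, CXCR4 and GATA6 were also lowest there on both days. CER1 had 478 and 397 CPM, against 1866.5 to 4478 CPM in the other libraries. SOX17, FOXA2 and HHEX were not lowest on both days, and FOXA2 was highest there on day 3. Of the mesoderm markers, HAND1 and PDGFRA were highest in replicate 1 on both days, FOXF1 was lowest and the rest were mixed. Replicate 4 of days 2, 3 and 4 had the pluripotency factor POU5F1 at 215, 199 and 119 CPM, against 16.8 to 43.4 CPM in the other libraries of these days. The rest of that marker list was mixed. PRDM14 was also highest in replicate 4 on each of these days, while DPPA4 was lowest there. DPPA4 had 112 CPM against 164 and 165 on day 2, 125 against 143 and 130 on day 3, and 104 against 125 and 108 on day 4. NANOG, SOX2 and ZFP42 changed order between the days. Without replicate 1 of days 3 and 4, 14 members were called over the days in place of the 16 described further on, and without replicate 4 of days 2, 3 and 4 there were 15. Each time 12 of the 16 stayed called. The first choice lost LINC00052, LINC00086, LINC00478 and LINC00514 and gained LINC00240 and LINC00309. The second lost LINC00052, LINC00327, LINC00478 and LINC00514 and gained LINC00116, LINC00152 and LINC00239. The choice to leave out replicate 4 was made after the data were seen.

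Of the 134 members, 32 had no count in any library and 29 (21.6%) were detected, meaning a mean of at least 0.5 CPM on a day or more. Over all symbols 65.9% were detected by the same rule. CPM is not scaled to transcript length, so a short transcript needs more molecules than a long one to pass. Detected members numbered 21 on day 0, 19 on day 1, 26 on day 2, 22 on day 3 and 26 on day 4. There were 14 detected on all 5 days, and 5 detected on each of days 2, 3 and 4 but not before: LINC00173, LINC00176, LINC00240, LINC00341 and LINC00479. LINC00173 and LINC00240 lay close below the threshold on day 0, with means of 0.436 and 0.413 CPM, and neither was called over the days. The members just inside the threshold were LINC00471 at 0.555 CPM, LINC00324 at 0.618 and LINC00309 at 0.678 on their highest day, and those just outside were LINC00242 at 0.492, LINC00575 at 0.408 and LINC00202 at 0.317.

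The day of the highest mean was day 0 for 8 detected members, day 1 for 2, day 2 for 3, day 3 for 4 and day 4 for 12. All 29 detected members passed the filter on low counts, as did 21 undetected ones, so 50 members were tested and 52 with some counts were not. The highest level of an untested member in any library was 0.473 CPM. The members that passed with low counts did so through the day on which they were high, so counts among the tested members describe that subset.

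**Figure D1:**
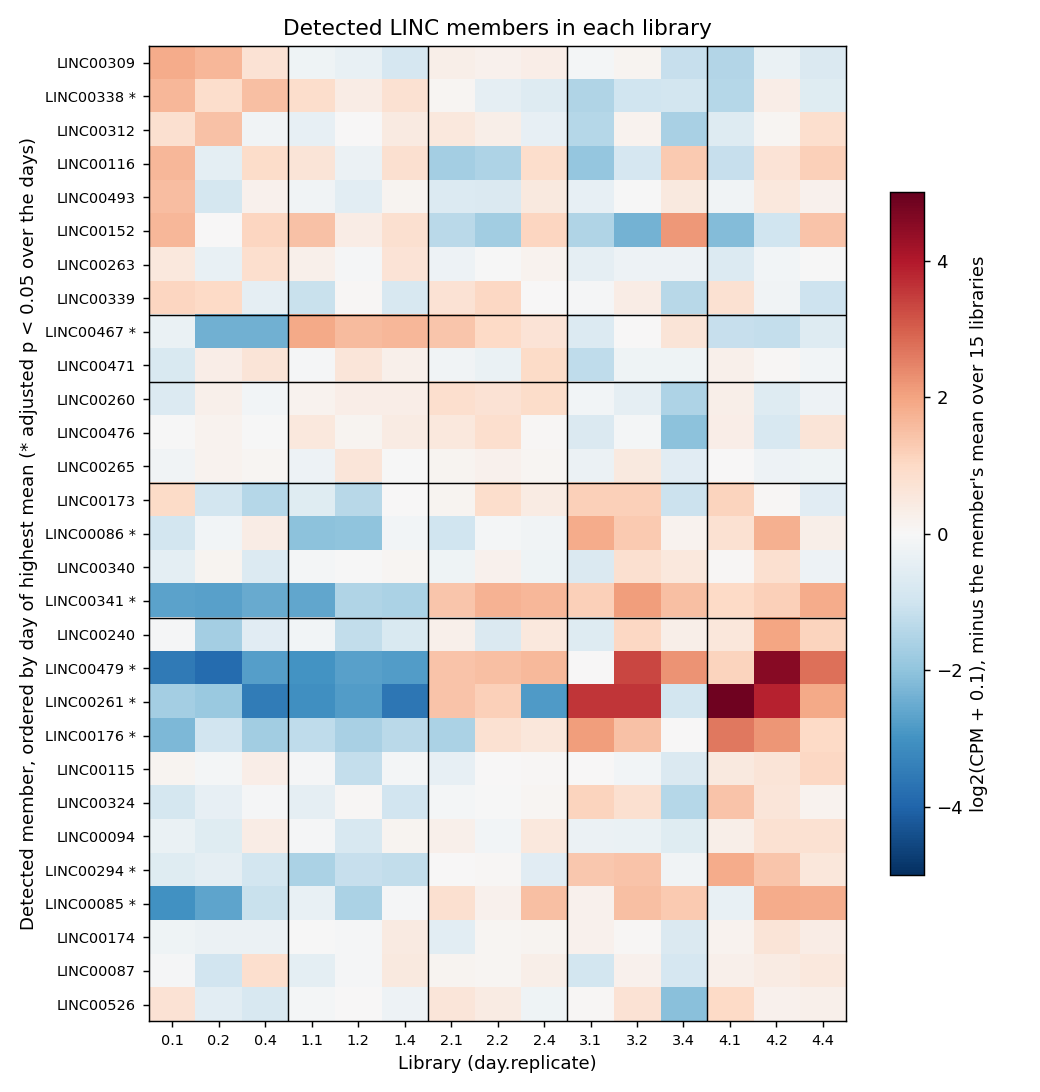
Each row is 1 of the 29 detected members and each column 1 of the 15 libraries, labelled by day and replicate. Colour gives log2(CPM + 0.1) minus the member's own mean over the libraries, and a star marks an adjusted p under 0.05 over the days. LINC00479 and LINC00341 run from blue on days 0 and 1 to red later, with replicate 1 of day 3 near white for LINC00479, and so does LINC00261 except in replicate 4 of days 2 and 3, which is blue; LINC00467 is red on days 1 and 2, and LINC00338 is red on days 0 and 1.

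In the joint test of the 5 days (edgeR's quasi-likelihood test, adjusted over all 17401 genes tested, called at an adjusted p under 0.05), 16 of 50 tested members (32%) were called, where 37.3% of all genes tested were. The called members included 9 detected ones and 7 below the detection level. With each library left out in turn, 10 of the 16 remained called every time, and 7 of these were detected: LINC00341, LINC00479, LINC00294, LINC00261, LINC00467, LINC00176 and LINC00338. LINC00085 lost its call without replicate 2 of day 0 (edgeR adjusted p = 0.0508). LINC00086 lost it without replicate 1 or 2 of day 1, replicate 1 of day 3 or replicate 2 of day 4, with an edgeR adjusted p of 0.0691, 0.0685, 0.0658 and 0.0521. Of the 9 detected and called members, 5 peaked on day 4, 2 on day 3, 1 on day 1 and 1 on day 0. RefSeq now classes 4 of the 9 as protein-coding, LINC00341, LINC00085, LINC00176 and LINC00086, and the other 5 as lncRNA. Among all 29 detected members it classes 8 as protein-coding.

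**Figure D2:**
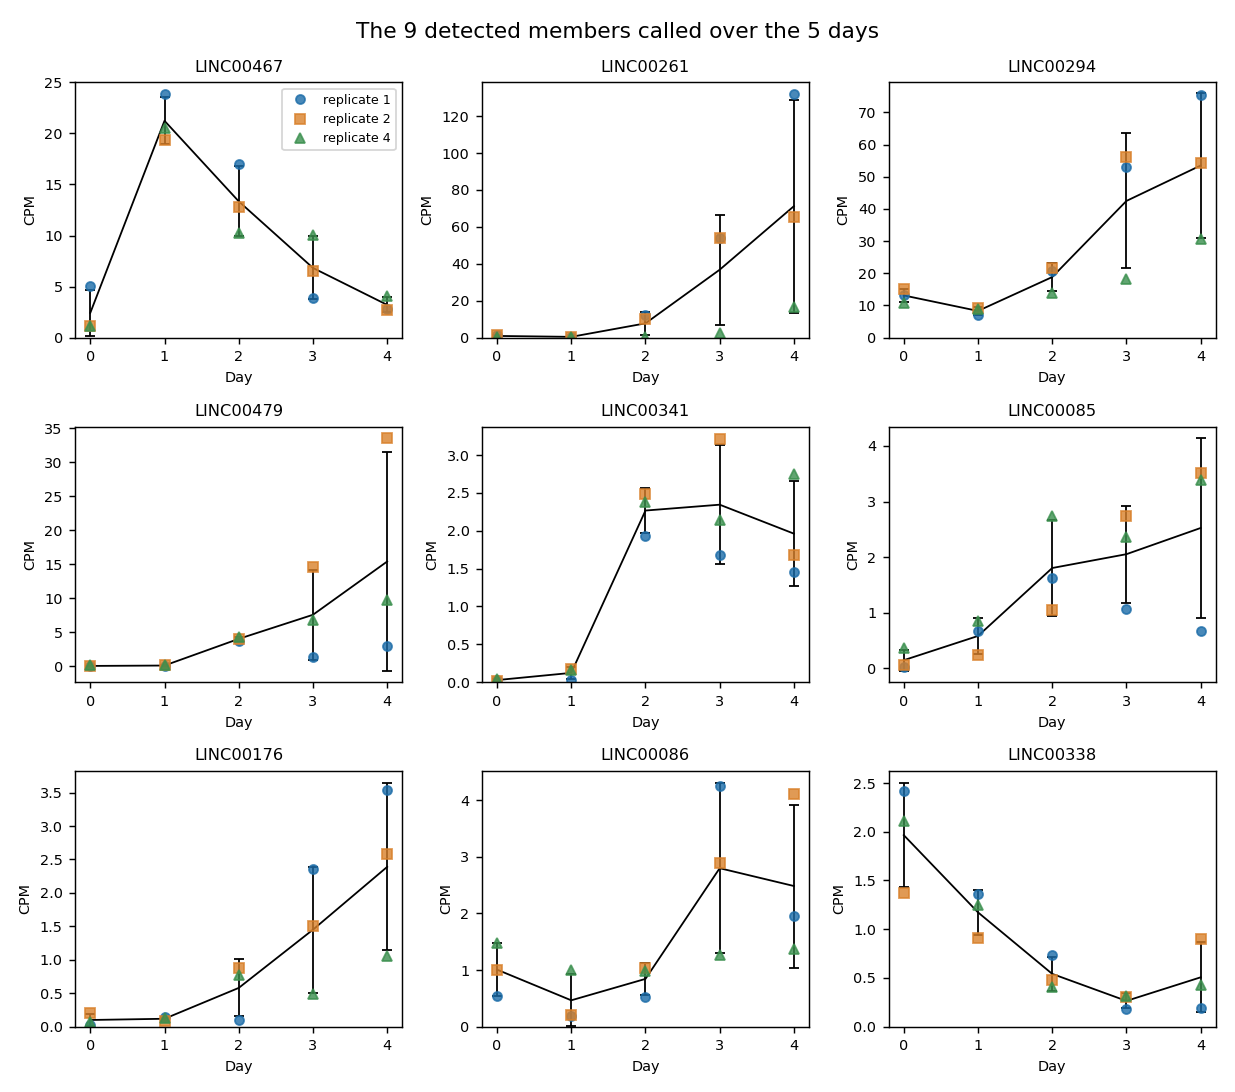
CPM in each library by day for the 9 detected members called over the days. Points are libraries, with the shape and colour giving the replicate, lines join day means and bars show 1 SD (n = 3 a day); scales differ between panels. LINC00467 peaks on day 1 at 19.4 to 23.8 CPM, and replicate 4 of LINC00261 and LINC00294 lies below the other replicates on days 2, 3 and 4. The same order on these 3 days was seen in 19.3% of all genes tested.

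No member was stage-specific in the strict sense, which asked for a detected member called over the days, with all 3 libraries of its highest day above all other libraries and a mean at least 2 times that of the next day. Of all genes tested, 5.55% (966) met it, 639 of them on day 0 and 234 on day 1, against 19, 17 and 57 on days 2, 3 and 4. There were 5 detected members whose libraries of 1 day all lay above every other library: LINC00309 and LINC00338 on day 0, LINC00467 on day 1, LINC00260 on day 2 and LINC00115 on day 4. The same was seen in 11.6% of all detected genes tested. LINC00467 and LINC00338 were called but exceeded the next day by only 1.59 and 1.68 times. LINC00309 exceeded it by 2.86 times with an edgeR adjusted p of 0.05003, marginally above the threshold. LINC00260 and LINC00115 were not called.

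LINC00467, a lncRNA studied in neuroblastoma, had its highest level on day 1. It stood at 5.02, 1.13 and 1.12 CPM on day 0, at 23.8, 19.4 and 20.5 CPM on day 1, at 17.1, 12.8 and 10.2 CPM on day 2, at 3.93, 6.49 and 10.1 CPM on day 3 and at 2.83, 2.74 and 4.06 CPM on day 4, for replicates 1, 2 and 4. All day 1 libraries lay above all others, and all day 2 libraries lay above those of days 0, 3 and 4. Day 1 exceeded day 0 by a log2 fold change of 3.13 ± 0.55 (SE, edgeR adjusted p = 0.00151). Day 4 against day 0 was not called, with a log2 change of 0.41 (edgeR adjusted p = 0.575). Without replicate 1 of day 0, the highest library of that day, the log2 change was 4.24 on day 1 against day 0 (edgeR adjusted p = 0.000117), and day 4 against day 0 became called at 1.54 (edgeR adjusted p = 0.0158). The stepwise declines did not pass the test: the log2 change was -0.67 ± 0.51 on day 2 against day 1 (edgeR adjusted p = 0.487), -0.97 ± 0.52 on day 3 against day 2 (edgeR adjusted p = 0.419) and -1.09 ± 0.52 on day 4 against day 3 (edgeR adjusted p = 0.808). The neighbouring TRAF5, which encodes an adaptor of tumour necrosis factor receptors, averaged 17.2, 35.5, 44.9, 61.7 and 51.5 CPM on days 0 to 4, with its highest mean on day 3. The streak markers also had their highest sum on day 1, at 2224 to 2486 CPM, against 6.69 to 10.1 CPM on day 0. They still summed to 794 to 1265 CPM on day 2, 85.6 to 810 CPM on day 3 and 93.1 to 923 CPM on day 4. Of these markers T, MIXL1 and NODAL were highest on day 1, while EOMES, GSC and FGF8 reached their highest level later. Their part in the LINC00467 peak was not tested.

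Across the comparison of day 1 with day 0, 2 members were higher, against 5.49% of all genes tested, and 1 was lower, against 4.88% of all genes tested. The median log2 change was -0.079 over the 50 tested members and -0.025 over all genes. Besides LINC00467, both calls were low-count members. LINC00478, now MIR99AHG, had 0.111, 0.117 and 0.0905 CPM on day 1 and no count on day 0, a level at least 10.04-fold higher against a floor of 3 counts over the day 0 group (edgeR adjusted p = 0.0189). All counts are even, so this floor may be too low and the folds given against it, here and below, too large. LINC00277, now EWSAT1, had no count on day 1, against 0.379, 0.119 and 0.285 CPM on day 0, at least 21.3-fold lower with the same floor on day 1 (edgeR adjusted p = 0.0377). That call was lost with any library of day 0 or day 1 left out, at an edgeR adjusted p of 0.05003 to 0.122, and without replicate 1 of day 3 (0.0515), and the LINC00478 call was lost without replicate 2 of day 0 (0.0601), replicate 1 of day 1 (0.0527) or replicate 2 of day 1 (0.0525). NOX5, an NADPH oxidase gene beside LINC00277, had 1.19, 0.999 and 0.380 CPM on day 1 and no count on day 0.

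On day 2 against day 1, 3 members were higher, against 4.93% of all genes tested, and 0 were lower, against 3.34% of all genes tested. DESeq2 called 6 members higher and 1 lower, and 10 members had an unadjusted edgeR p below 0.05 in either direction. The 3 were LINC00341, LINC00479 and LINC00261. Each had a higher mean on days 3 and 4 than on day 1.

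LINC00341 had 0.0237, 0.0199 and 0.0381 CPM on day 0, 0.0277, 0.176 and 0.163 CPM on day 1, 1.93, 2.48 and 2.38 CPM on day 2, 1.68, 3.21 and 2.14 CPM on day 3 and 1.45, 1.68 and 2.76 CPM on day 4. Every library of days 2, 3 and 4 lay above every library of days 0 and 1. The log2 change was 4.18 ± 0.61 on day 2 against day 1 (SE, edgeR adjusted p = 0.000518) and 6.09 ± 0.69 on day 4 against day 0 (edgeR adjusted p = 1.32e-05). RefSeq gives both LINC00341 and C14orf49 as older names of SYNE3, so a second entry of the table counts the same present-day gene. C14orf49 averaged 0.0254, 0.507, 2.83, 5.44 and 4.09 CPM on days 0 to 4, and its day 4 against day 0 log2 change was 7.19 ± 1.05 (SE). How reads were divided between the pair is not given in the sources used here.

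LINC00479 had 0.0237, 0 and 0.114 CPM on day 0, 0.0832, 0.117 and 0.109 CPM on day 1, 3.77, 3.94 and 4.36 CPM on day 2, 1.36, 14.6 and 6.75 CPM on day 3 and 2.98, 33.5 and 9.72 CPM on day 4. The libraries of day 2 agreed closely, while those of days 3 and 4 spread over about an order of magnitude, with replicate 1 lowest and replicate 2 highest on both days. The log2 change was 5.27 ± 1.05 on day 2 against day 1 (SE, edgeR adjusted p = 0.00557) and 8.31 ± 1.20 on day 4 against day 0 (edgeR adjusted p = 0.000125). The day 4 change was 10.34 without replicate 4 of day 0 (edgeR adjusted p = 0.000252) and 7.09 without replicate 2 of day 4 (edgeR adjusted p = 0.000348). LINC00479 and LINC00341 were the detected members with all libraries of days 2 to 4 above those of days 0 and 1, a pattern of 5.9% of all genes tested and looked for after their values were seen. The neighbours of LINC00479 did not follow its day 2 level: RIPK4, a kinase gene of epithelial differentiation, averaged 3.53 ± 1.69 CPM on day 2 and 5.18 ± 1.00 CPM on day 1 (SD, n = 3 each), and TMPRSS2, a serine protease gene, averaged 3.22 ± 0.79 CPM on day 2 and 8.44 ± 0.88 CPM on day 1. RIPK4 was higher on day 4 than on day 0 by a log2 change of 2.37 ± 0.66 (SE, edgeR adjusted p = 0.0120).

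LINC00261 had 1.30, 1.17 and 0.304 CPM on day 0, 0.444, 0.558 and 0.272 CPM on day 1, 12.4, 10.3 and 0.548 CPM on day 2, 53.9, 54.2 and 2.31 CPM on day 3 and 132, 65.1 and 16.8 CPM on day 4. Replicate 4 was the lowest library on each day. On day 2 it lay within the range of days 0 and 1, while replicates 1 and 2 were above all earlier libraries. The log2 change was 4.20 ± 1.16 on day 2 against day 1 (SE, edgeR adjusted p = 0.0354) and 6.27 ± 1.26 on day 4 against day 0 (edgeR adjusted p = 0.00155).

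The day 2 call of LINC00261 was lost without replicate 1, 2 or 4 of day 1, at an edgeR adjusted p of 0.129, 0.106 and 0.129, and without replicate 1 or 2 of day 2, at 0.0985 and 0.0862. Without replicate 4 of days 2, 3 and 4, the log2 change on day 2 against day 1 was 4.76 (edgeR adjusted p = 0.000127) and that on day 4 against day 0 was 6.74 (edgeR adjusted p = 2.95e-06). These libraries were left out after the data were seen and were the lowest of LINC00261 on those days. The larger changes and smaller p-values follow from that choice. Without replicate 1 of day 4, the log2 change of LINC00261 on day 4 against day 0 was 5.53 (edgeR adjusted p = 0.00297). In GENCODE v29 it shares 4779 exon bases with AL121722.1 on the same strand, so reads there could be counted for either or dropped.

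FOXA2, a forkhead factor gene, is the protein-coding neighbour of LINC00261, whose own promoter window carried the forkhead match printed above. FOXA2 had 14.9, 9.14 and 7.52 CPM on day 0, 1.91, 2.50 and 1.503 CPM on day 1, 25.9, 24.3 and 8.82 CPM on day 2, 252, 116 and 48.2 CPM on day 3 and 171, 210 and 89.6 CPM on day 4. As for LINC00261, replicate 4 was the lowest library on each day, but unlike it, FOXA2 on day 2 was above all day 1 libraries in all 3 replicates. FOXA2 fell on day 1 by 2.42 ± 0.56 on the log2 scale relative to day 0 (SE, edgeR adjusted p = 0.0102), while for LINC00261 the change was -1.13 ± 1.07 (edgeR adjusted p = 0.559). FOXA2 then rose by 3.32 ± 0.58 on day 2 against day 1 (edgeR adjusted p = 0.00206) and by 2.82 ± 0.56 on day 3 against day 2 (edgeR adjusted p = 0.0276). The other neighbour, PAX1, a paired-box factor gene, had no count on days 0, 2 and 3. It had 0.0555 CPM in replicate 1 of day 1 only, and 0.196, 0.0599 and 0.177 CPM on day 4, and it was not among the genes tested.

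**Figure D3:**
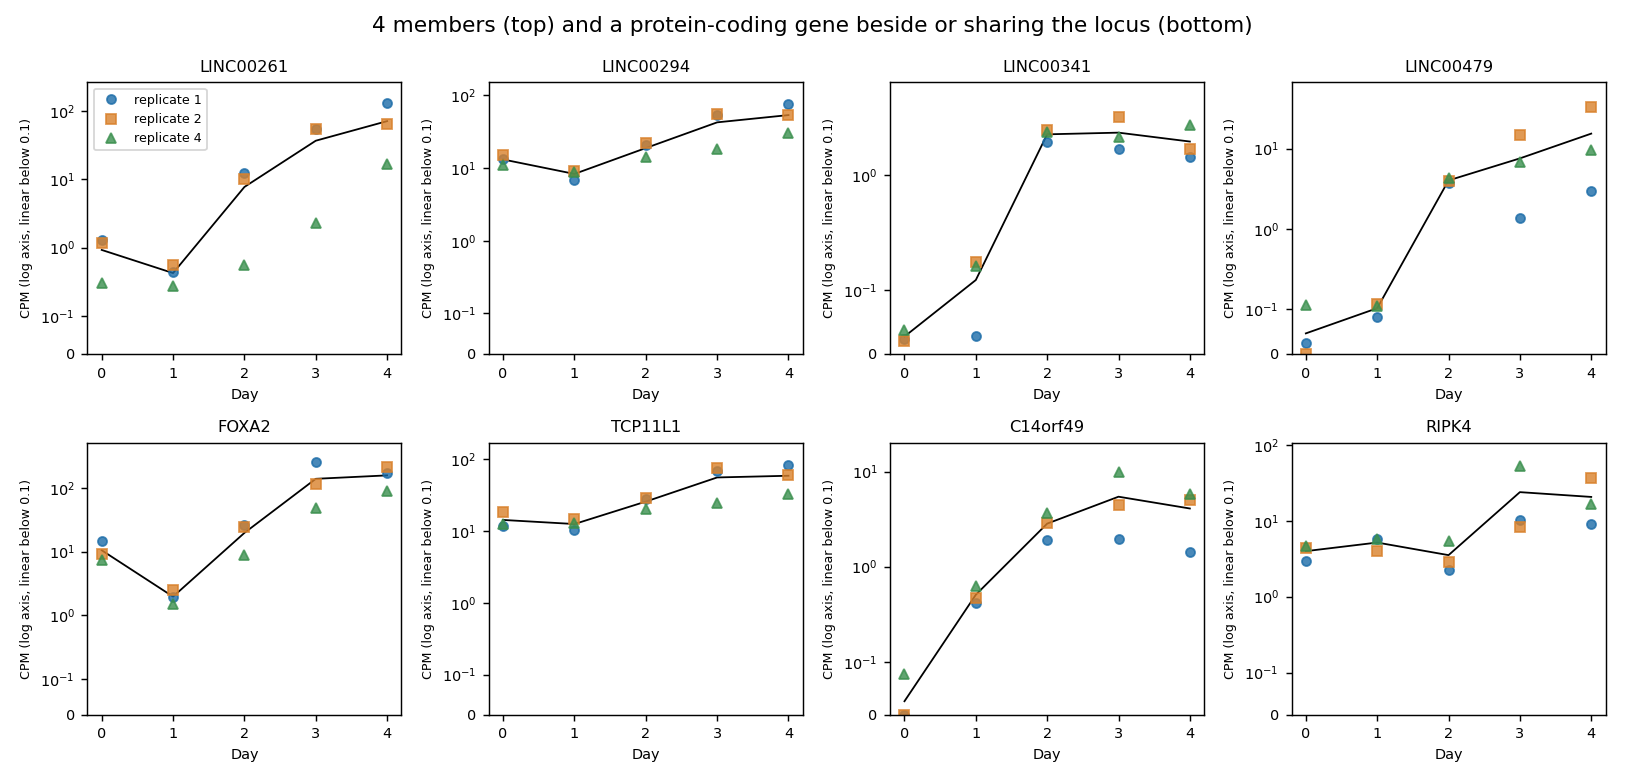
CPM in each library by day for 4 members (top) and for a protein-coding gene beside the member or, for C14orf49, at the same gene (bottom). The vertical axis is logarithmic above 0.1 CPM and linear below, points are libraries and lines join day means. FOXA2 dips on day 1 and reaches a day 4 mean of 157 CPM, and TCP11L1 and LINC00294 both have replicate 4 lowest on days 2, 3 and 4. Replicate 4 was lowest on these 3 days in 19.3% of all genes tested.

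In the consecutive comparisons after day 2 no member passed. On day 3 against day 2, 0 members were higher, against 0.661% of all genes tested, and 0 were lower, against 0.287% of all genes tested, with edgeR. There were 8 members with an unadjusted p below 0.05, and DESeq2 called 2. With the replicate number as a block, edgeR called 1 member higher on day 3 than on day 2. This was LINC00261, with a log2 change of 2.22 (edgeR adjusted p = 0.0444 with the block, 0.345 without it). The block was fitted over all 15 libraries. Same-numbered libraries varied together for every number on day 3 with day 2. On day 1 with day 0, day 2 with day 1 and day 4 with day 0 they did so for some numbers only. On day 4 against day 3, 0 members were higher and 0 lower with edgeR, against 0% of all genes tested in either direction. With the block, 0 members were higher and 0 lower as well. In the fit without the block, 2 members and 1074 genes in all had an unadjusted p below 0.05 on day 4 against day 3. DESeq2 called 0 members and 64 genes. The median log2 change on day 4 against day 3 was 0.575 over the 50 tested members and 0.008 over all genes. The members with an unadjusted edgeR p below 0.05 there were LINC00094 and LINC00052. LINC00094, now BRD3OS and classed as protein-coding, had 15.4, 21.8 and 21.4 CPM on day 4, against 10.4, 10.03 and 8.25 CPM on day 3. Its exons share 1281 bases with BRD3 on the opposite strand. The chromatin reader gene BRD3 can therefore not be told apart from it in those bases if strand was not used.

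Over the whole course, 10 members were higher on day 4 than on day 0, against 18% of all genes tested, and 2 were lower, against 16.2% of all genes tested. The median log2 change was 0.381 over the 50 tested members and -0.024 over all genes. DESeq2 also called 12 members. The 10 were LINC00341, LINC00479, LINC00261, LINC00294, LINC00176, LINC00085, LINC00240, LINC00575, LINC00202 and LINC00478, and the 2 were LINC00338 and LINC00309.

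LINC00294 had 13.4, 15.1 and 10.9 CPM on day 0, 6.93, 9.19 and 8.78 CPM on day 1, 20.8, 21.8 and 13.98 CPM on day 2, 53.0, 56.1 and 18.3 CPM on day 3 and 75.5, 54.4 and 30.7 CPM on day 4. All day 4 libraries lay above all day 0 libraries, and the log2 change was 2.03 ± 0.42 (SE, edgeR adjusted p = 0.00181). It lies between TCP11L1 and CSTF3, which encodes a cleavage stimulation factor subunit. TCP11L1 averaged 14.2, 12.4, 25.5, 55.3 and 58.4 CPM on days 0 to 4, with a day 4 against day 0 log2 change of 2.04 ± 0.42 (SE, edgeR adjusted p = 0.00194). CSTF3, which shares 263 exon bases with LINC00294 on the opposite strand, averaged 53.1 ± 7.7 CPM on day 4 and 88.9 ± 26.2 CPM on day 0 (SD, n = 3 each), a log2 change of -0.74 ± 0.32 (SE, edgeR adjusted p = 0.0823).

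LINC00176, now C20orf204, had 3.53, 2.58 and 1.06 CPM on day 4, against 0.0237, 0.199 and 0.0761 CPM on day 0, without overlap. It stayed at 0.0881 to 0.139 CPM on day 1, and replicate 1 of day 2 was still at 0.0921 CPM while the others had 0.879 and 0.767 CPM. The log2 change on day 4 against day 0 was 4.56 ± 0.94 (SE, edgeR adjusted p = 0.00182), and 5.52 without replicate 2 of day 0 (edgeR adjusted p = 0.00312). Its neighbour SOX18, a SOX factor gene of endothelium, was high a day earlier, with 3.55, 2.38 and 2.73 CPM on day 1, against 0.0237, 0.0199 and 0.171 CPM on day 0 (log2 change 5.28 ± 0.82, edgeR adjusted p = 0.000524).

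LINC00085 had 0.668, 3.51 and 3.39 CPM on day 4, against 0.0237, 0.0596 and 0.362 CPM on day 0. The groups did not overlap, but replicate 1 of day 4 was about as high as the day 1 libraries, which had 0.666, 0.235 and 0.851 CPM. The log2 change was 4.06 ± 0.92 (SE, edgeR adjusted p = 0.00344), and 5.92 without replicate 4 of day 0, the highest of that day (edgeR adjusted p = 0.000760).

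RefSeq places the hairpins of miR-99b, let-7e and miR-125a within the span of SPACA6, the present name of LINC00085, and those of miR-99a and let-7c within that of MIR99AHG, the present name of LINC00478. The mature sequences from RefSeq are shown because both called loci hold a pair with the same seeds. Seeds, bases 2 to 8, are in capitals.
hsa-miR-99b-5p: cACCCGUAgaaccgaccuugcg
hsa-miR-99a-5p: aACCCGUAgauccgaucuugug
hsa-let-7e-5p: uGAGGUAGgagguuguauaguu
hsa-let-7c-5p: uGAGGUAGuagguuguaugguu
hsa-miR-125a-5p: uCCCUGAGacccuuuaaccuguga
The seed ACCCGUA is shared by miR-99b and miR-99a, and GAGGUAG by let-7e and let-7c. The polyA libraries count the host transcripts, and the miRNAs themselves were not analysed here. LINC00478 had 0.0393, 0.0599 and 0.0707 CPM on day 4 and no count on day 0, at least 5.24-fold higher with a floor of 3 counts over the day 0 group (edgeR adjusted p = 0.0179). Its call over the 5 days (edgeR adjusted p = 0.0417) was lost in 14 of the 15 fits that left out a library.

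LINC00086, which RefSeq gives as an older name of a pair of genes of small integral membrane proteins, SMIM10L2A and SMIM10L2B, had 0.544, 0.993 and 1.48 CPM on day 0, 0.194, 0.206 and 0.996 CPM on day 1, 0.516, 1.03 and 0.986 CPM on day 2, 4.25, 2.88 and 1.26 CPM on day 3 and 1.96, 4.11 and 1.38 CPM on day 4. Day 3 libraries all lay above day 2 libraries, with a log2 change of 1.73 ± 0.69 (SE, edgeR adjusted p = 0.262). RefSeq gives the same pair of genes for LINC00087. That member averaged 2.59, 2.44, 2.68, 1.76 and 3.18 CPM on days 0 to 4 and was not called over the days (edgeR adjusted p = 0.621). How reads were divided between LINC00086 and LINC00087 is not given in the sources used here. LINC00240 had 1.08, 2.99 and 1.59 CPM on day 4, against 0.663, 0.139 and 0.438 CPM on day 0, a log2 change of 2.19 ± 0.70 (SE, edgeR adjusted p = 0.0241). That call was lost without replicate 2 of day 0 (edgeR adjusted p = 0.0820) or of day 4 (edgeR adjusted p = 0.105). AC093274.1 matches LINC00240 at 97.8% identity over 4139 bases, so reads could fall to either.

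LINC00338, now SNHG20, the host of small RNA SCARNA16, was highest on day 0. It had 2.41, 1.37 and 2.11 CPM on day 0, 1.36, 0.910 and 1.25 CPM on day 1, 0.737, 0.477 and 0.411 CPM on day 2, 0.177, 0.300 and 0.316 CPM on day 3 and 0.196, 0.898 and 0.424 CPM on day 4. The libraries of days 0 and 1 lay above all those of days 2, 3 and 4, and day 4 fell by 1.95 ± 0.57 on the log2 scale relative to day 0 (SE, edgeR adjusted p = 0.0152). The day 4 call was lost without replicate 1 (edgeR adjusted p = 0.0562) or replicate 4 of day 4 (edgeR adjusted p = 0.0615), and the log2 change was -2.62 without replicate 2 of day 4 (edgeR adjusted p = 0.00838). It shares 460 exon bases with SEC14L1 on the same strand, which averaged 115 ± 5.3 CPM on day 4 and 69.1 ± 30.0 CPM on day 0 (SD, n = 3 each).

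LINC00309 had 0, 0.120 and 0.0707 CPM on day 4, against 0.899, 0.775 and 0.362 CPM on day 0, and fell by 3.40 ± 1.05 on the log2 scale (SE, edgeR adjusted p = 0.0208). The call was lost without replicate 1 (edgeR adjusted p = 0.0556) or 2 of day 0 (0.0506) or replicate 4 of day 4 (0.0605). The log2 change was -2.73 without replicate 1 of day 4 (edgeR adjusted p = 0.0416) and -4.31 without replicate 2 of day 4 (edgeR adjusted p = 0.0303). The undifferentiated-cell markers were also lower on day 4 than on day 0 in all libraries, with the sums given above, and their part in the levels of LINC00309 and LINC00338 was not tested. In bulk RNA, fewer cells of a type and less RNA per cell cannot be told apart.

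The 7 called members below the detection level had highest day means of 0.106 to 0.408 CPM, with 4 highest on day 0, 1 on day 1 and 2 on day 4. LINC00575 was the clearest, with 0.452, 0.419 and 0.353 CPM on day 4 and no count on day 0, at least 40.4-fold higher against the floor (edgeR adjusted p = 0.00451). It lies between TMEM150C and SCD5, a stearoyl-CoA desaturase gene. Both rose, with day 4 against day 0 log2 changes of 5.69 ± 0.56 for TMEM150C and 5.66 ± 0.60 for SCD5 (SE). LINC00202, now FAM238C, had 0.196, 0.260 and 0.495 CPM on day 4, against 0, 0 and 0.0190 CPM on day 0, where replicate 4 held the only counts (edgeR adjusted p = 0.00531). Without replicate 4 of day 0 the remaining day 0 libraries of LINC00202 had no count and the call held (edgeR adjusted p = 0.00520). It shares stretches at over 95% identity with FAM238A and FAM238B. LINC00052, LINC00327, LINC00514 and LINC00478 each lost the joint call in at least 1 fit that left out a library. These members and their neighbours were chosen after their values were seen.

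Of the protein-coding genes that lie next to or overlap the 8 of the 9 detected and called members that RefSeq placed, 15 were tested and 9 (60.0%) were called over the days. Beside the 19 placed members of the 20 that were detected and not called, 34 were tested and 14 (41.2%) were called, where 37.3% of all genes tested were.

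A set of 19 better-known members was listed, 10 of which were in the table and 7 detected. LINC00473, LINC00511 and LINC00461 had at most 0.0679, 0.255 and 0.139 CPM in any library. LINC00493 had 114, 21.5 and 45.5 CPM on day 0, 34.6, 27.5 and 42.7 CPM on day 1, 24.6, 23.8 and 54.9 CPM on day 2, 29.9, 38.8 and 55.5 CPM on day 3 and 35.0, 56.4 and 45.3 CPM on day 4. Replicate 1 of day 0 was the highest and the days overlapped, with a day 4 against day 0 log2 change of -0.41 ± 0.49 (SE, edgeR adjusted p = 0.553). LINC00116 had 0.393, 1.66 and 2.40 CPM on day 4, against 3.34, 0.675 and 1.96 CPM on day 0, a log2 change of -0.43 ± 0.96 (SE, edgeR adjusted p = 0.764).

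LINC00152, now CYTOR, a lncRNA linked to cytoskeletal genes, split the replicates. Replicate 4 had 2.90, 6.36 and 3.78 CPM on days 2, 3 and 4, while replicates 1 and 2 had 0.180 to 0.619 CPM on these days and all day 0 and day 1 libraries had 1.35 to 4.45 CPM. With all libraries the log2 change on day 4 against day 0 was -0.93 ± 1.17 (SE, edgeR adjusted p = 0.571). Without replicate 4 of days 2, 3 and 4 it was -2.79 (edgeR adjusted p = 0.00993). These libraries were left out after the data were seen and were the highest of LINC00152 on those days, so the larger fall follows from that choice. LINC00152 was the detected member with replicate 4 over 2 times both other libraries on each of days 2, 3 and 4, which held for 0.874% of all genes tested, and LINC00261 was the one with replicate 4 below both others by a factor over 2, which held for 0.592%. In the same 3 libraries POU5F1 was high but DPPA4, also an undifferentiated-cell marker, was the lowest of its day. Their part in these levels was not tested. MIR4435-2HG matches LINC00152 at 99.2% identity over 2254 bases, so reads could fall to either.

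**Figure D4:**
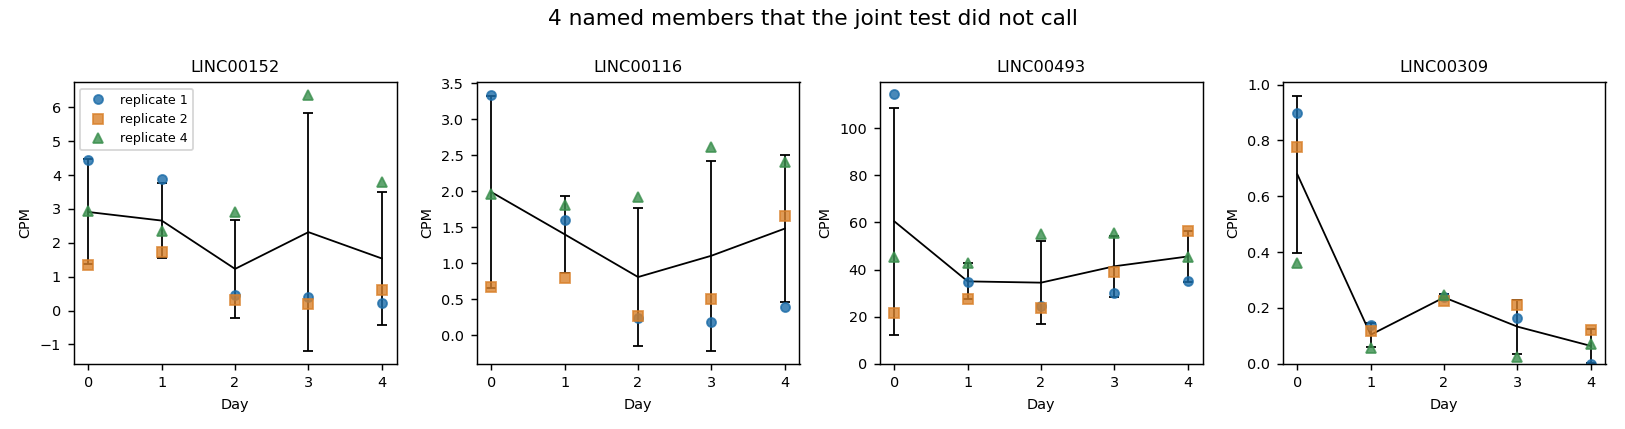
CPM in each library by day for 4 named members that the joint test did not call. Points are libraries with shape and colour giving the replicate, lines join day means and bars show 1 SD (n = 3 a day). Replicate 4 of LINC00152 and LINC00116 lies above the other replicates on days 2, 3 and 4, which held for 15.7% of all genes tested. LINC00309 is highest in all 3 day 0 libraries.

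The members that were detected but not called, 20 in all, exceeded their next highest day by 1.005 to 2.86 times, and 2 of them, LINC00309 and LINC00240, by 2 times or more. Uncertain levels were common in the set. Of the 25 detected members found in GENCODE v29, 14 share exon bases with another gene, 8 of them on the same strand and 10 on the opposite strand, and 6 have a stretch of at least 200 bases at 95% identity or more elsewhere in the transcripts.

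The summed level of all 134 members was 139 ± 55.7 CPM on day 0, 118 ± 13.3 on day 1, 143 ± 7.4 on day 2, 189 ± 48.7 on day 3 and 261 ± 73.4 on day 4 (SD, n = 3 each). LINC00493, LINC00294 and LINC00261 took up much of it, and the other 131 members summed to 64.5 ± 8.1, 74.8 ± 6.1, 82.2 ± 0.26, 68.1 ± 16.6 and 91.0 ± 19.8 CPM on days 0 to 4. These are sums of reads, not of molecules, since longer transcripts give more reads. No test was made of these sums.

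**Figure D5:**
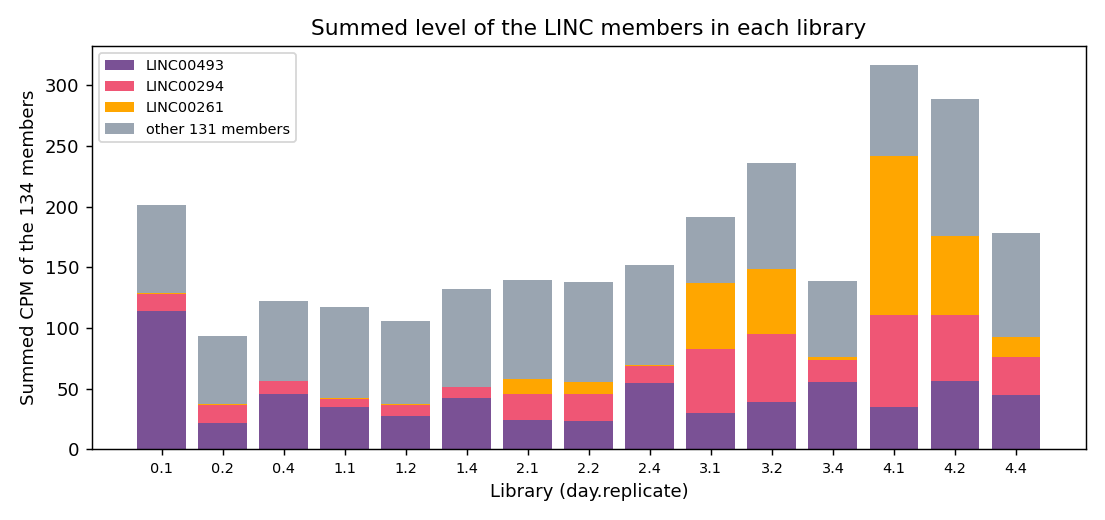
Summed CPM of the 134 members in each library, labelled by day and replicate, with the parts of LINC00493, LINC00294 and LINC00261 and of the other 131 members in colour. The day 4 bars reach 317, 289 and 178 CPM, and the LINC00261 part is small in replicate 4.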

How the data were processed

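Total RNA of H9 cells was made into directional, polyA-selected libraries, per the labels' protocols. TopHat2 2.0.14 and the build hg19 were used, per the submitters' processing notes, while counting program, annotation and strand setting were not given in the sources used here. The authors deposited whole-number counts per symbol, not normalized, with 23398 entries, of which 44 identical repeats were dropped here and 16 repeats of symbols, none a member, were summed. All values are even. Columns were matched by sample title.

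Counts were tested with edgeR 4.0.16 (limma 3.58.1, R 4.3.3): quasi-likelihood F-tests, TMM scaling, filterByExpr by day, a mean per day, all 15 libraries in 1 fit, and Benjamini-Hochberg adjustment over the 17401 genes kept, called under 0.05. DESeq2 1.42.0 was an alternative. The fits were also run on counts simulated with independent libraries, which these may not be, and no result here rests on that run. CPM were computed with TMM-scaled totals, with detection at 0.5 CPM on a day and a floor of 3 counts. The floor was meant for counting error only. Since all values are even, 1 observation may add more than 1 count, and a floor of 3 counts may be too low. The at-least folds may then be too large as lower bounds. Members, lists and rules were chosen with earlier results of these data known. Named were the called members with the up to 5 largest increases and 5 largest decreases per comparison at 0.5 CPM or more, stage-specific members, a list of 19 known members and their neighbours; LINC00294, LINC00086, LINC00240, LINC00260, LINC00115 and the undetected members were named after their values were seen.

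Replicate numbers were checked as pairs by the correlation of deviations from the day means. It was over 0.1 for every number on day 3 with day 2 (0.418, 0.591 and 0.779) and on day 4 with day 3 (0.776, 0.189 and 0.712), so a block is given there. On day 1 with day 0 the values were 0.021, 0.608 and 0.282 for replicates 1, 2 and 4. They were -0.215, 0.603 and 0.344 on day 2 with day 1, and 0.217, -0.332 and 0.555 on day 4 with day 0. In each of these comparisons some numbers were over 0.1, but not every one. The fit with the block nevertheless used the libraries of all 5 days. Promoters and miRNAs are from RefSeq tables (GRCh38.p14), exon overlaps from GENCODE v29, and transcripts were compared with blastn 2.17.0 (Python 3.11.15, pandas 2.3.3).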

Additional observations from a re-analysis of the deposited data

How the results depend on the processing

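The number of members called over the 5 days, 16, was 14 with the replicate block, 20 with DESeq2, 9 with a filter of CPM above 1 in 3 libraries, which left out the 7 undetected members, and 12 to 18 with each library left out in turn. Detected members numbered 23 at 1 CPM, 36 at 0.25 CPM, 25 if all libraries of a day had to pass, and 28 to 30 with each library left out. Stage-specific members, 0 in the report, numbered 1 with DESeq2, the replicate block, counts halved, no test asked or replicate 1 of days 3 and 4 left out, each time LINC00309, 2 with no ratio asked (LINC00338 and LINC00467), and 0 to 2 with each library left out: LINC00309 without replicate 4 of day 3, LINC00240 and LINC00309 without replicate 1 of day 4, LINC00176 and LINC00261 without replicate 4 of day 4. On day 1 against day 0, 2 members higher and 1 lower became 1 and 0 with the CPM filter, 4 and 2 with DESeq2, 4 higher with the replicate block, 1 and 2 with only the libraries of both days, 1 higher with counts halved, and 1 to 4 and 0 to 2 with each library left out. On day 2 against day 1, 3 higher and 0 lower became 6 and 1 with DESeq2, 5 higher with the replicate block, 1 lower without replicate 4 of days 2, 3 and 4, a choice made after the data were seen, and 0 to 1 lower with each library left out. On day 3 against day 2, 0 became 1 in each direction with DESeq2, 1 higher with the block, and 0 to 2 higher with each library left out. On day 4 against day 0, the 2 lower members became 1 with the CPM filter or without replicate 1 of days 3 and 4, 0 with only the libraries of both days, and 0 to 2 with each library left out. The causes were not tested, other than for the CPM filter, which tests fewer genes. Of 938 values of single members under other settings, 846 kept direction and side of the threshold, 88 lost their call, 4 gained one and 0 changed direction. Outside the comparisons of day 3 with day 2 and day 4 with day 3, same-numbered libraries varied together for some numbers but not for all. The block changed counts in those comparisons as given.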
